A study of Homo sapiens with 12 samples.

Results

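The genes described here are EWSR1 and TAF15, of the FET family of RNA-binding proteins, and 7 transcription factors of the ETS family, FLI1, ERG, ETS1, ETS2, ETV1, ETV4 and ETV5. They were chosen by name, as every entry of the expression table whose symbol is 1 of these 9, which gave 9 of 78885 entries. RNA was sequenced in 12 libraries of TC-71, an established line from a human Ewing sarcoma. In 6 libraries the cells were labelled wild type, 3 treated for 16 hours with YK-4-279, at 2 mM as labelled, and 3 treated with the solvent DMSO for the same time. The other 6 libraries hold 3 DHX9 knockdown cultures (siDHX9) and 3 scrambled controls, transfected in a double pulse with Lipofectamine RNAiMAX and collected at 48 hours. The labels' protocols speak of siRNA and the series' design text of shRNA, and all 12 libraries come from 1 line, so the spread between replicates is that of cultures.

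FET proteins bind RNA and the transcribing polymerase and carry a disordered region that activates transcription when it is joined to a DNA-binding domain. ETS factors share a DNA-binding domain that recognises a GGAA core. In Ewing sarcoma a chromosomal rearrangement joins the first part of EWSR1 to the last part of an ETS gene, most often FLI1 and in a minority of tumours ERG, ETV1, ETV4 or FEV, and the fusion binds GGAA repeats as well as single sites. YK-4-279 was developed to block the contact of EWS-FLI1 with DHX9, an RNA helicase, and the design sets this drug and lowered DHX9 each against its own control. A table with 1 value per gene cannot tell fusion reads from reads of the partner genes. In bulk RNA, fewer cells with a transcript and less of it per cell cannot be told apart either.

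In units of 1e6 reads, depth was 48.3 to 53.7 with YK-4-279, 38.6 to 65.5 with DMSO, 46.9 to 49.4 for siDHX9 and 47.8 to 51.0 for scrambled controls. The DHX9 entry, which also holds its neighbour NPL, had 20608 ± 1098 normalised counts in siDHX9 libraries and 32689 ± 2132 in scrambled libraries (SD, n = 3 each, limma adjusted p = 4.54e-05, exact two-sided permutation p = 0.1, the smallest that 3 against 3 allows). All 8 Ewing sarcoma markers listed were expressed, with a summed level of 56841 to 69372 normalised counts. The sum of 6 endothelial markers, a normal site of FLI1, ERG and ETS1, was 0 to 12.8, and that of 5 haematopoietic markers was 0 to 16.1. Of 5 fibroblast markers 3 passed the minimum, and their sum was 2234 to 2654 in siDHX9 and 1615 to 1875 in scrambled libraries. Its part in the siDHX9 results below was not tested. Replicates differed most between siDHX9 replicates 2 and 3, at a root mean square of 0.566 on the log2 scale, and least between DMSO replicates 1 and 2, at 0.374.

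ETV1 was the only member with a difference that passed the test. It fell 1.52-fold in siDHX9 against scrambled libraries, and no other difference of the 9 genes passed the test. EWSR1 and TAF15 were abundant, the FLI1 entry was low, ERG had no reads, and ETS1 and ETV4 had a handful. Tests were run with limma on log2(normalised count + 1), and a gene was called at a Benjamini-Hochberg adjusted p under 0.05 over all 14225 named entries with a mean of at least 10. EWSR1, TAF15, FLI1, ETS2, ETV1 and ETV5 passed that minimum, and ERG, ETS1 and ETV4 did not. Of the 6 tested, 0 were called with YK-4-279 against DMSO, where 13.8% of all tested entries were called. In siDHX9 against scrambled libraries 1 of 6 was called, where 16.7% of all entries were, so the share among these genes was no higher than the background. In scrambled against DMSO libraries 0 of 6 were called (18.9% of all entries), and 0 of 6 for the difference between the drug and knockdown effects (9.69%). At an unadjusted p under 0.05 these 4 counts were 1, 2, 0 and 1, and edgeR and DESeq2 on reads recovered from the table gave 0, 1, 0 and 0.

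**Figure D1:**
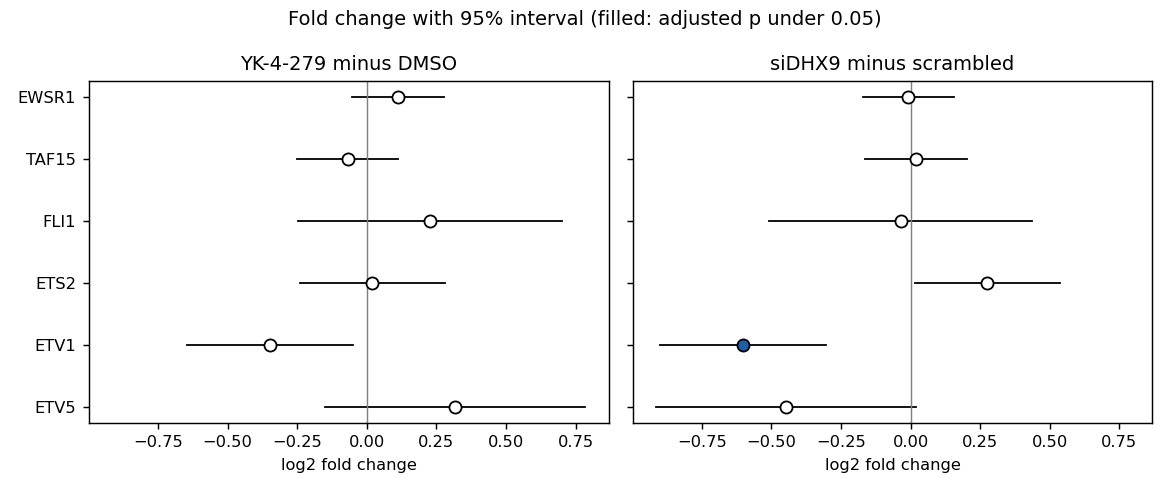
Log2 fold change of the 6 tested genes with its 95% interval from limma, for YK-4-279 minus DMSO (left) and siDHX9 minus scrambled (right). Filled points have an adjusted p under 0.05, which ETV1 in siDHX9 libraries alone reached, at −0.60, and the widest intervals are those of the low genes FLI1 and ETV5.

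EWSR1 (GSHG0019932, hg19 chromosome 22, 29663998 to 29696514) gives the Ewing fusion its first part and was the most abundant of the 9 genes. It had 25259, 25493 and 24692 normalised counts with YK-4-279, against 23442, 23608 and 22806 with DMSO. It had 19795, 19588 and 24174 in siDHX9 libraries, against 20460.2, 21689 and 21459 in scrambled libraries. All 3 YK-4-279 libraries lay above all 3 DMSO libraries, while siDHX9 replicate 3 lay above and the other two siDHX9 libraries below the scrambled range. The log2 difference was 0.11 ± 0.08 (SE) for YK-4-279, with a 95% interval of −0.05 to 0.28 (adjusted p = 0.361), and −0.01 ± 0.08 for siDHX9, with an interval of −0.17 to 0.16 (adjusted p = 0.957). In percent these intervals run from −3.66% to 21.1% for YK-4-279 and from −11.3% to 11.5% for siDHX9. Scrambled libraries lay below all DMSO libraries, at a log2 difference of −0.14 ± 0.08 (adjusted p = 0.231). The order of the group means was therefore YK-4-279, DMSO, scrambled and siDHX9, with a gap between the ranges of the first 3 and an overlap of the last pair. Ranges did not overlap between YK-4-279 and DMSO for 2 of the 6 tested genes, EWSR1 and ETV1, nor for 43.5% of all tested entries. The same 2 genes had ranges apart between scrambled and DMSO libraries, as did 40.8% of all tested entries. The first 155 bases of the EWSR1 entry also belong to RHBDD3, at a mean of 1495 normalised counts, a small level beside the 22705 of EWSR1.

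TAF15 (GSHG0012414, chromosome 17, 34136459 to 34174245) is a relative of EWSR1 that associates with the general transcription factor TFIID. Its levels were 8193, 8576 and 8112 normalised counts with YK-4-279, against 9386, 8636 and 8123 with DMSO. They were 8601, 9108 and 10543 in siDHX9 libraries, against 9782, 9350.1 and 8663 in scrambled libraries. Ranges overlapped in both comparisons, and between every pair of neighbours in the order siDHX9, scrambled, DMSO and YK-4-279. The log2 differences were −0.07 ± 0.09 for YK-4-279 (adjusted p = 0.63, interval −0.25 to 0.11) and 0.02 ± 0.09 for siDHX9 (adjusted p = 0.895, interval −0.16 to 0.20). Per kilobase of exon, with exon lengths from GENCODE release 29, EWSR1 held 7489 and TAF15 3779 normalised counts on average, the first and the second of the 30 FET and ETS genes compared this way. A pair of entries without a symbol lie inside the TAF15 span, at means of 16.6 and 29.7 normalised counts. Neither was called in siDHX9 against scrambled libraries, at log2 differences of 1.51 ± 0.61 (adjusted p = 0.108) and −0.96 ± 0.32 (adjusted p = 0.0599).

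**Figure D2:**
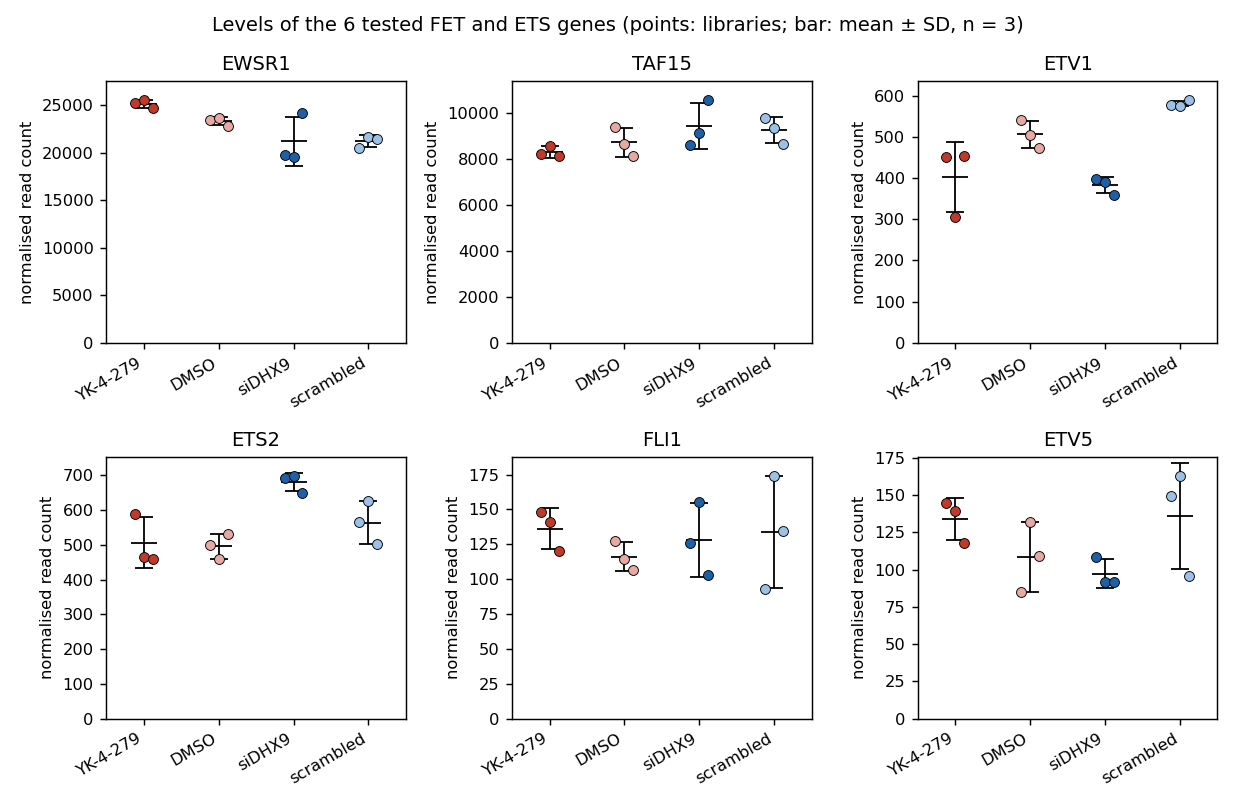
Normalised read counts of EWSR1, TAF15, ETV1, ETS2, FLI1 and ETV5 in YK-4-279, DMSO, siDHX9 and scrambled libraries, on axes from 0. Points are libraries and bars are the mean ± SD of 3, and ETV1 in siDHX9 libraries, at 359.9 to 397, lies well under its scrambled range of 576 to 589.

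FLI1 (GSHG0005395, chromosome 11, 128556430 to 128683161) is an ETS factor of endothelial and blood cells and gives the common Ewing fusion its DNA-binding part. The FLI1 entry held 148, 141 and 119.9 normalised counts with YK-4-279, against 128, 114 and 107 with DMSO. It held 126, 156 and 103 in siDHX9 libraries, against 92.9, 174 and 135 in scrambled libraries. Values overlapped in every pair of groups compared, and the scrambled libraries covered the widest range. The log2 difference was 0.23 ± 0.22 for YK-4-279 (adjusted p = 0.531, interval −0.25 to 0.70) and −0.04 ± 0.22 for siDHX9 (adjusted p = 0.927, interval −0.51 to 0.44). The siDHX9 value was −0.28 without scrambled replicate 1 and −0.18 without siDHX9 replicate 2, but 0.17 without scrambled replicate 2 and 0.11 without siDHX9 replicate 3, and passed in none of these fits (adjusted p = 0.412 to 0.808). At 28.5 normalised counts per kilobase of exon this entry ranked 13th among the 30 genes, below ETS2 and ETV1, although TC-71 is known as an EWS-FLI1 line.

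A second entry, without a symbol (GSHG0005397), lies wholly inside the FLI1 span, at 128659852 to 128662729, and ends 20432 bases before the FLI1 entry does. It held 1109, 1247 and 1194 normalised counts with YK-4-279, against 868, 939 and 1056 with DMSO. It held 737, 594 and 714 in siDHX9 libraries, against 809, 733 and 770.1 in scrambled libraries. In every library it therefore held more than the FLI1 entry, by 3.82 to 9.96 times, with 10866 recovered reads in all against 1578. Spread over its 2878 bases that is a mean of 312 normalised counts per kilobase of span. Which transcript this entry stands for is not given in the table, and the fusion breakpoint was not examined.

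In a fit that also held the unnamed entries, this second entry had a log2 difference of 0.31 ± 0.11 for YK-4-279 against DMSO (adjusted p = 0.0723), with all 3 YK-4-279 libraries above all 3 DMSO libraries. The difference was −0.18 ± 0.11 for siDHX9 against scrambled libraries (adjusted p = 0.263), and the drug effect exceeded the knockdown effect by 0.50 ± 0.15 (adjusted p = 0.0572). Scrambled libraries all lay below DMSO libraries, by −0.30 ± 0.11 (adjusted p = 0.0694). None of the 4 passed the threshold here, and 3 of them did so with DESeq2, at 0.0428 for YK-4-279, 0.0272 for the difference of effects and 0.0419 for scrambled against DMSO. The YK-4-279 value also passed in a fit of only its 6 libraries (adjusted p = 0.0215). Leaving out siDHX9 replicate 2 brought the drug and the scrambled values under the threshold (adjusted p = 0.035 and 0.0357), and leaving out siDHX9 replicate 3 did so for the difference of effects (0.0475). The choice to describe this entry and to refit it was made after its values were seen.

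**Figure D3:**
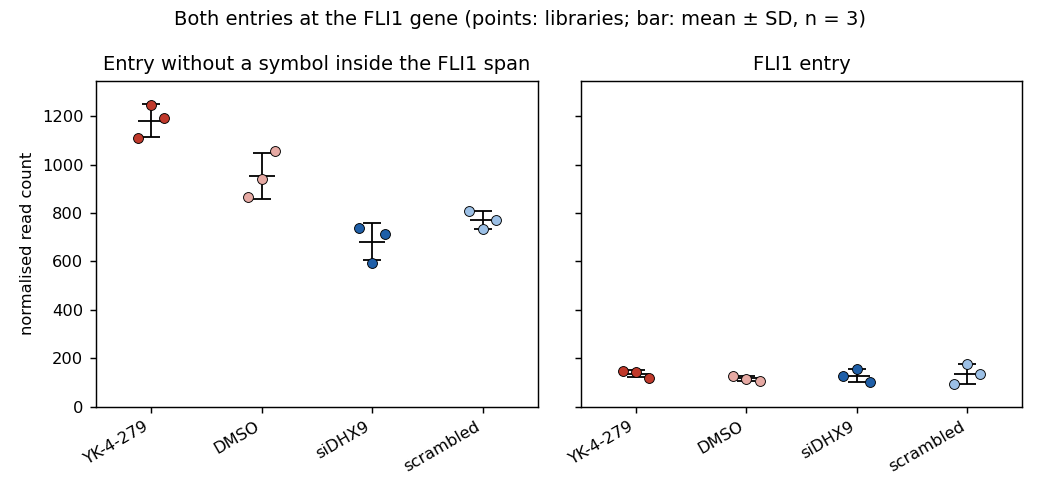
Normalised read counts of the unnamed entry inside the FLI1 span (left) and of the FLI1 entry (right), in the 4 groups on 1 axis from 0. Points are libraries and bars the mean ± SD of 3, and the unnamed entry, from 594 to 1247, lies above the FLI1 entry in each library.

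ERG (GSHG0019699, chromosome 21, 39739180 to 39956880), the second most common ETS partner in Ewing sarcoma and otherwise an endothelial factor, had 0 reads in all 12 libraries. A count of 0 allows up to 3 reads, which is 2.24 to 3.85 normalised counts depending on the library, and this covers counting error only. KCNJ15, which overlaps the ERG span, had a mean of 8.15 normalised counts.

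ETV1, ETV4 and ETV5 form the PEA3 group, ETS factors that act downstream of receptor tyrosine kinases and the ERK pathway. The repressor CIC, with its partners ATXN1 and ATXN1L, holds their genes silent until ERK signalling releases it, and the ubiquitin ligase built on COP1 and DET1 marks their proteins for degradation.

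ETV1 (GSHG0028018, chromosome 7, 13930858 to 14031050) had 397, 391 and 359.9 normalised counts in siDHX9 libraries, against 578, 576 and 589 in scrambled libraries. The highest siDHX9 library was thus far below the lowest scrambled library, and both groups were tight, at 383 ± 19.9 and 581 ± 6.72 (SD, n = 3 each). ETV1 fell by 34.1% in siDHX9 libraries, with a 95% interval of −46.4% to −19.0% (log2 −0.60 ± 0.14 SE, limma adjusted p = 0.0118). Of all tested entries 7.97% were called lower in this comparison, and 29.3% had ranges that did not overlap, which held for 2 of the 6 tested members, ETV1 and ETS2. The exact two-sided permutation test of 3 against 3 values gave p = 0.1, the smallest it allows. ETV1 was called by edgeR (adjusted p = 0.0101), by DESeq2 (0.000501) and in each of the 12 fits that left out 1 library (0.00257 to 0.0422). Without both scrambled replicates 1 and 2, the log2 difference was −0.62 and the adjusted p was 0.138.

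With YK-4-279, ETV1 had 451, 306 and 454 normalised counts, against 540.2, 504 and 474 with DMSO. All 3 drug libraries lay below all 3 DMSO libraries, and replicate 2 lay far below the other two drug libraries. The log2 difference of −0.35 ± 0.14 did not pass (adjusted p = 0.112, interval −0.65 to −0.05). Without YK-4-279 replicate 2 it was −0.16 (adjusted p = 0.437). The scrambled libraries lay above all DMSO libraries (log2 0.20 ± 0.14, adjusted p = 0.332). The drug effect on ETV1 minus the knockdown effect was 0.26 ± 0.20 (adjusted p = 0.44), so a difference between the effects was not shown. From high to low the groups ran scrambled, DMSO, YK-4-279 and siDHX9, with ranges apart for the first 3 and an overlap of YK-4-279 with siDHX9.

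ETV1 promoters are described because ETV1 is the only member that was called and because its known regulators bind short, readable sites. Of the 6 promoter windows that RefSeq gives for ETV1 only some are shown, and these hold a CIC octamer or a GGAA tandem. Each window runs from 250 bases before to 50 bases after an annotated start, and the table held 13 windows for EWSR1, ERG, ETS2 and ETV1, of which 6 belong to ETV1. They were searched on both strands for the ETS core GGAA, for its tandem GGAAGGAA, which also counts in the core, and for the CIC octamer in the forms TGAATGAA, TGAATGGA, TCAATGAA and TCAATGGA. The first window below (GRCh38.p14, chr7:13991376-13991675, minus strand) holds 1 CIC octamer, and the second (chr7:13990653-13990952, minus strand) holds 1 tandem, each in capitals.
ETV1 window with a CIC octamer: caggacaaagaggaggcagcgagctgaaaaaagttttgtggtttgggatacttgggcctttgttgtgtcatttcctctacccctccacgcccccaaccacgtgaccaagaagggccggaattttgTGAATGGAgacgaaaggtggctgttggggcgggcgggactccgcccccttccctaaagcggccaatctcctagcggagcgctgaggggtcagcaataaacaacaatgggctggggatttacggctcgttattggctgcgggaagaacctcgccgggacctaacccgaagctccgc
ETV1 window with a GGAA tandem: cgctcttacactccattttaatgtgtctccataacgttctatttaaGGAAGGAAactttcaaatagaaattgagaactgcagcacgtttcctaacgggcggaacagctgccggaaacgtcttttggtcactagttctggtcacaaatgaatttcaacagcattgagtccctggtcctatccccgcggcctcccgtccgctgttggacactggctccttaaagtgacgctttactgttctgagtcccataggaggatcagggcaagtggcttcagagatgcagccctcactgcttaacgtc

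The octamer begins at position −125 and the tandem at position −204 from the annotated starts. A further ETV1 window overlaps the second one almost wholly and holds the same tandem. The remaining ETV1 windows, and all those of EWSR1, ERG and ETS2, hold neither an octamer nor a tandem. Among all 35116 promoter windows of the same length, 3.77% hold the octamer, 3.67% the tandem and 95.5% a GGAA core, so a core is found in nearly any window. These shares are per window, and ETV1 was searched in several, so they are not shares of genes with a site. These letters describe the sequence and are no measure of binding. TAF15, FLI1, ETS1, ETV4 and ETV5 had no window.

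By a rule based on likeness, the 3 protein-coding genes whose 12 values, each centred on its own mean, lay nearest to those of ETV1 were METTL14, SRBD1 and FAR2. METTL14 is a subunit of the RNA m6A methyltransferase, and FAR2 reduces fatty acyl-CoA to fatty alcohols. The root mean square difference from ETV1 was 0.085, 0.109 and 0.113 on the log2 scale, where the median over 10337 candidates was 0.348. METTL14 had 268, 271 and 244 normalised counts in siDHX9 libraries, against 379, 415 and 397 in scrambled libraries. The log2 difference of siDHX9 from scrambled libraries was −0.60 for METTL14, −0.58 for SRBD1 and −0.60 for FAR2, values that the choice by likeness to ETV1 fixes.

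ETV5 (GSHG0022297, chromosome 3, 185764106 to 185826901) had 145, 139.8 and 118 normalised counts with YK-4-279, against 85.1, 132 and 109 with DMSO. It had 109, 91.5 and 91.9 in siDHX9 libraries, against 149.7, 163 and 95.8 in scrambled libraries. The low scrambled library is replicate 3, which lies inside the siDHX9 range, while the other two lie far above it. The log2 difference was 0.32 ± 0.22 for YK-4-279 (adjusted p = 0.357) and −0.45 ± 0.22 for siDHX9 (adjusted p = 0.168). The drug effect minus the knockdown effect was 0.76 ± 0.31 (adjusted p = 0.131, unadjusted p = 0.0263). Without scrambled replicate 3 the siDHX9 value was −0.68 and passed the test (adjusted p = 0.0355), and so did the difference of effects, at 1.00 (adjusted p = 0.031). Over the 12 fits without 1 library the siDHX9 value ran up to −0.30, with adjusted p values up to 0.431. The difference of effects ran down to 0.60 in these fits, with adjusted p values up to 0.264. Over all alternatives the siDHX9 value rose as high as 0.018 and the difference fell as low as 0.30. With all libraries, neighbours in the order scrambled, YK-4-279, DMSO and siDHX9 overlapped in every case.

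ETV4 (GSHG0013442, chromosome 17, 41605211 to 41623800), the third member of the PEA3 group, had 14 recovered reads over the 12 libraries. There were 0, 4 and 0 with YK-4-279 and none with DMSO, and 2, 0 and 0 in siDHX9 against 2, 2 and 4 in scrambled libraries. No difference was detectable at this level. The helicase gene DHX8 covers 16945 bases of the ETV4 span, at a mean of 1142 normalised counts, and with no statement on strand the reads of the 2 genes cannot be assigned for certain. DHX8 averaged 1008 normalised counts in siDHX9, against 1371 in scrambled libraries (log2 −0.44 ± 0.10, adjusted p = 0.0114), and 1114 with YK-4-279, against 1075 with DMSO (adjusted p = 0.784). Scrambled libraries were also above DMSO libraries (log2 0.34 ± 0.10, adjusted p = 0.0292), a call lost without any 1 DMSO library or scrambled replicate 1 or 2 (0.0654 to 0.118). The siDHX9 call was lost in a fit of only the 6 libraries compared (0.0879) and without both scrambled replicates 1 and 2 (0.24).

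ETS2 (GSHG0019485, chromosome 21, 40177231 to 40196876) is activated by ERK phosphorylation and is widely expressed. It had 590.2, 467 and 460.4 normalised counts with YK-4-279, against 498, 459 and 532 with DMSO. It had 693, 698 and 651 in siDHX9 libraries, against 564, 625 and 503 in scrambled libraries. The siDHX9 libraries all lay above the scrambled ones, while the drug and DMSO ranges overlapped. For siDHX9 the log2 difference was 0.28 ± 0.12 with an interval of 0.02 to 0.54, which did not pass after adjustment (adjusted p = 0.128, unadjusted p = 0.0391). For YK-4-279 it was 0.02 ± 0.12 (adjusted p = 0.934, interval −0.24 to 0.28). ETS2 was the only tested ETS member with a higher mean in siDHX9 than in scrambled libraries, and the drug effect minus the knockdown effect, −0.26 ± 0.17, did not pass either (adjusted p = 0.37).

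ETS1 (GSHG0006311, chromosome 11, 128328656 to 128457453), the founding member of the family and a lymphoid and endothelial factor, lies beside FLI1 on its chromosome. It had 4, 12 and 2 recovered reads with YK-4-279, against 0, 0 and 2 with DMSO, and 2, 0 and 4 in siDHX9 against 0, 0 and 0 in scrambled libraries. Each of the 3 YK-4-279 libraries held reads, as did 1 DMSO library, and with 26 reads in all the gene was under the minimum for a test. In counts of this size the recovered numbers are mostly even, at 59.8% to 63.4% of entries with 1 to 20 reads per library, while counts above 1000 were even in 49.3% to 50.9% of entries. Whether both mates of a pair were counted was not tested.

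Set beside the rest of the family, the named ETS factors were not the most abundant ones. Per kilobase of exon, ERF, a repressor that ERK removes from the nucleus, averaged 1593 normalised counts and FEV, a factor of serotonin neurons, 689. ETS2 followed at rank 8 with 138, ETV1 at rank 11 with 60.7, FLI1 at rank 13 with 28.5 and ETV5 at rank 14 with 27.5. ETS1 and ETV4 had 0.411 and 0.408, and ERG, EHF, ELF5, ETV3L and SPIC were at 0. The exon lengths come from another annotation than the counts, so a rank between close neighbours may not hold.

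**Figure D4:**
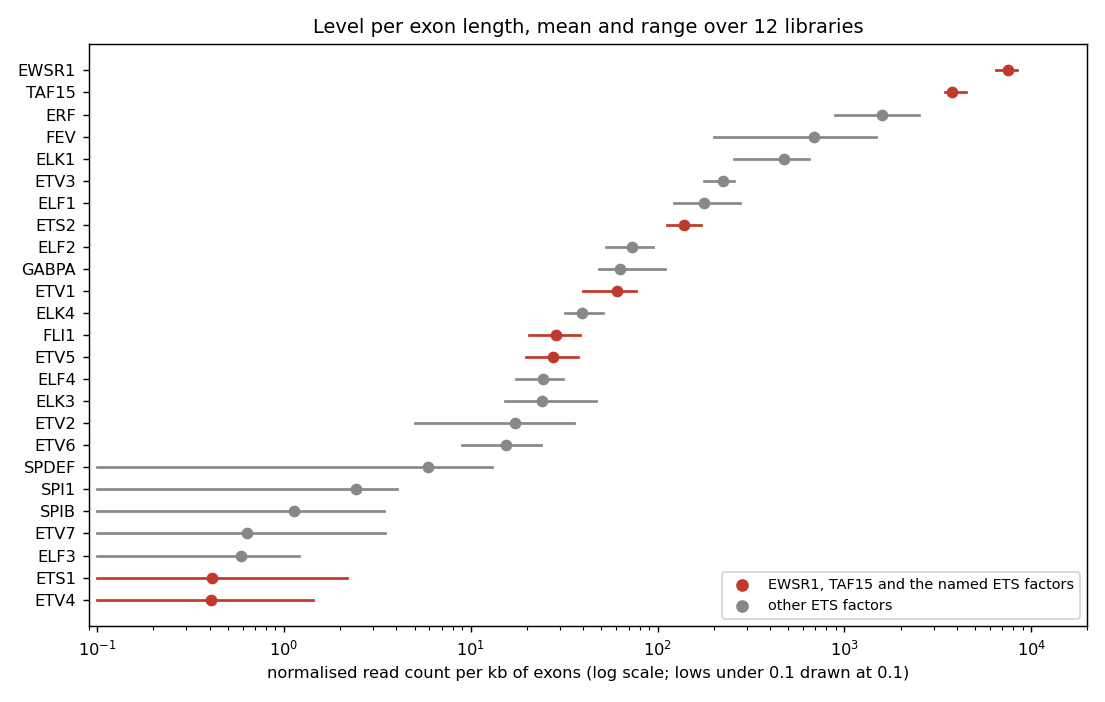
Mean (point) and range over 12 libraries (line) of normalised read counts per kilobase of exon, on a log axis, for the FET genes and the ETS factors with any read. EWSR1, TAF15 and the named ETS factors are in red, from 7489 for EWSR1 to 0.408 for ETV4, and the other ETS factors in grey.

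Of 21 other ETS factors listed, 13 passed the minimum. With YK-4-279, where 7.33% of all entries were called higher and 6.49% lower, ERF rose and SPDEF fell, and the median log2 difference of the 13 was 0.14, against 0.02 over all tested entries. ERF had 6316, 7038 and 6226 normalised counts with YK-4-279, against 3839, 4207 and 4976 with DMSO (log2 0.60 ± 0.18, adjusted p = 0.0444). SPDEF was barely expressed, at 0, 4.02 and 4.03 with YK-4-279, against 8.21, 14.9 and 18.0 with DMSO (log2 −2.26 ± 0.63, adjusted p = 0.0312). Both calls were weak. ERF lost its call without any 1 of the 6 libraries compared or scrambled replicate 3 (adjusted p = 0.0502 to 0.157), with the replicate number as a block (0.0509) and with no minimum mean. SPDEF lost its call without any 1 DMSO library or YK-4-279 replicate 1 (0.0508 to 0.102).

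In siDHX9 against scrambled libraries 2 of the 13 were called, both lower, and the median was −0.22, against −0.002 over all entries, of which 8.75% were called higher and 7.97% lower. ELK3, a ternary complex factor that works with SRF, had 74.5, 86.0 and 63.8 normalised counts in siDHX9 libraries, against 142, 198 and 122 in scrambled libraries (log2 −1.01 ± 0.21, adjusted p = 0.0077). ELF1 had 436, 611 and 504 in siDHX9 libraries, against 882, 981 and 646 in scrambled libraries (log2 −0.69 ± 0.16, adjusted p = 0.0123). Leaving out siDHX9 replicate 1 ended the ELF1 call (adjusted p = 0.0554), and so did a fit of only the 6 libraries compared. Without both scrambled replicates 1 and 2 the adjusted p was 0.206 for ELK3 and 0.384 for ELF1. ELK3 was also the 1 factor of the 13 called in scrambled against DMSO libraries (log2 0.87 ± 0.21, adjusted p = 0.0138), where 18.9% of all entries were called. It was not called there without scrambled replicate 2 (0.0671) or DMSO replicate 3 (0.0664). ETV3, ELK1 and FEV, the most abundant of the factors called in no comparison, had log2 differences for siDHX9 of −0.26, −0.22 and −0.004.

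The 14 regulators of the PEA3 group and ERK feedback genes listed were all above the minimum. In siDHX9 against scrambled libraries the regulators CIC, ATXN1, ATXN1L and COP1 had log2 differences of 0.18 ± 0.08, −0.04 ± 0.11, −0.16 ± 0.08 and 0.07 ± 0.07, and none of these 4 passed the test. With YK-4-279, DET1 was the 1 gene of the 14 that was called, where 13.8% of all entries were called. It rose. It had 276, 228 and 213 normalised counts with YK-4-279, against 136, 184 and 137 with DMSO (log2 0.65 ± 0.16, adjusted p = 0.0177). This call was lost without DMSO replicate 1 or 3 or YK-4-279 replicate 1 or 2 (adjusted p = 0.0519 to 0.0818). The median over the 14 was 0.27 with YK-4-279, against 0.02 over all tested entries.

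In siDHX9 against scrambled libraries 3 of the 14 were called and all 3 fell, where 16.7% of all entries were called and 7.97% were lower. The median of the 14 was −0.11, against −0.002 over all entries. Of the 14, 5 had a log2 difference above 0, among them the uncalled feedback genes SPRY1 (0.66 ± 0.39, adjusted p = 0.262) and DUSP4 (0.60 ± 0.36, adjusted p = 0.264). The 3 genes that fell are feedback inhibitors that ERK signalling induces, DUSP6, a phosphatase of ERK, and SPRY2 and SPRY4, which dampen signals from receptor tyrosine kinases. DUSP6 had 1008, 1151 and 797 normalised counts in siDHX9 libraries, against 2214, 1412 and 1699.9 in scrambled libraries (log2 −0.84 ± 0.16, adjusted p = 0.00353). SPRY2 had 278, 306 and 257 in siDHX9 libraries, against 582, 433 and 534 in scrambled libraries (log2 −0.87 ± 0.13, adjusted p = 0.000948). Both passed in each of the 12 fits without 1 library, with adjusted p values up to 0.0172 for DUSP6 and 0.00684 for SPRY2. SPRY4 had 49.7, 73.2 and 80.0 in siDHX9 libraries, against 132, 133 and 99.8 in scrambled libraries (log2 −0.85 ± 0.26, adjusted p = 0.038). The SPRY4 call was lost without any 1 YK-4-279 library, scrambled replicate 1 or 2, or siDHX9 replicate 1 (0.0505 to 0.141). It was also lost in a fit of only the 6 libraries compared and with no minimum mean.

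The same 3 genes differed between the drug and the knockdown effects, where 4.4% of all entries were called higher and 5.29% lower. This contrast includes the siDHX9 difference by which the 3 were called above, so it is not a separate result. The drug effects alone were 0.34 for DUSP6, 0.14 for SPRY2 and 0.58 for SPRY4, and none of these was called. The drug effect minus the knockdown effect was 1.18 ± 0.22 for DUSP6 (adjusted p = 0.00552), 1.01 ± 0.19 for SPRY2 (0.0051) and 1.43 ± 0.36 for SPRY4 (0.0257). In scrambled against DMSO libraries, where 9.7% of all entries were higher and 9.22% lower, DUSP6 was higher (log2 0.81 ± 0.16, adjusted p = 0.00358) and so was SPRED2 (1.03 ± 0.29, adjusted p = 0.0243), while DUSP4 was lower (−1.22 ± 0.36, adjusted p = 0.0319). DUSP6 in siDHX9 libraries, at 797 to 1151, spanned its DMSO range of 939.9 to 1023, as ETV5 in siDHX9 libraries, at 91.5 to 109, lay within its DMSO range of 85.1 to 132. ETV1 in siDHX9 libraries lay below all 3 DMSO libraries. So did SPRY2, at 257 to 306 in siDHX9 against 360 to 428 in DMSO libraries. SPRY4 in siDHX9 libraries, at 49.7 to 80.0, overlapped its DMSO range of 63.55 to 123. Time, transfection and DMSO differ together between the drug and the transfected libraries, and their parts cannot be told apart. SPRED2 lost its call without DMSO replicate 1 or 3 or scrambled replicate 1 or 2 (0.057 to 0.108), and DUSP4 without any 1 DMSO library or scrambled replicate 2 or 3 (0.0543 to 0.126). DUSP4 also lost its call in a fit of only the 6 libraries compared.

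**Figure D5:**
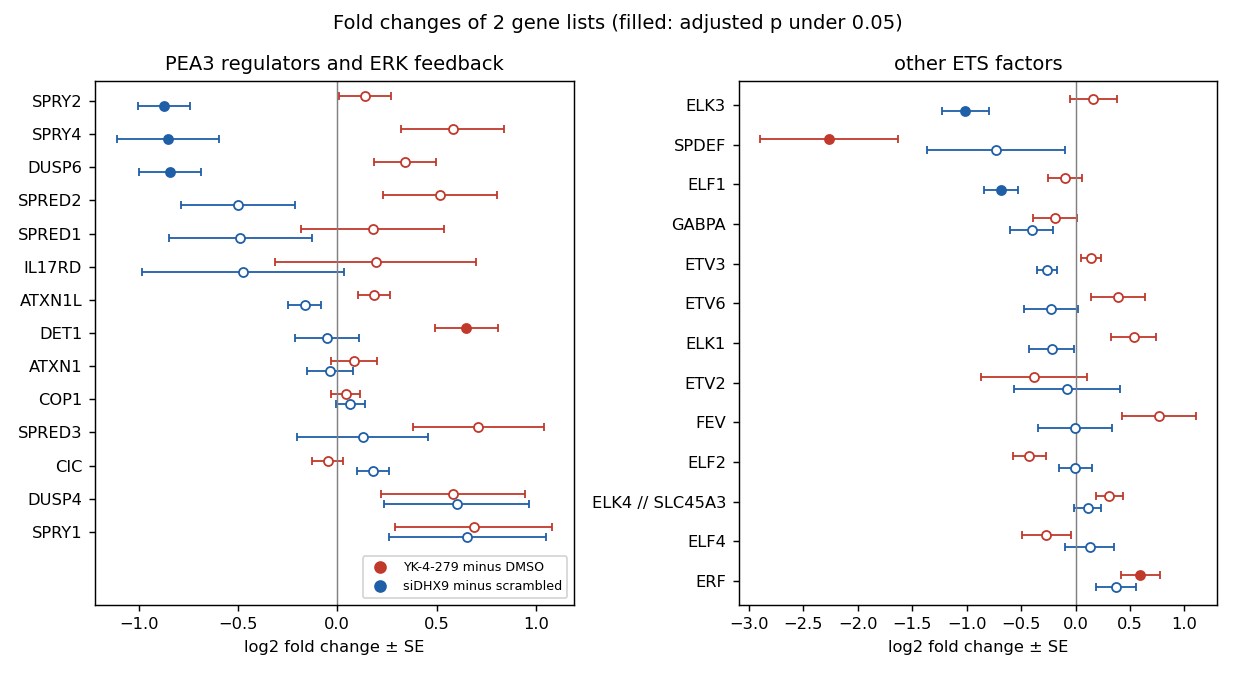
Log2 fold change ± SE of the regulators and ERK feedback genes of the PEA3 group (left) and the other tested ETS factors (right), with YK-4-279 minus DMSO in red and siDHX9 minus scrambled in blue. Filled points have an adjusted p under 0.05, and SPRY2, SPRY4 and DUSP6 lie at −0.87, −0.85 and −0.84 in siDHX9 libraries.

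All 16 listed partners and modifiers of FET proteins and of EWS-FLI1 passed the minimum. With YK-4-279, 2 rose and 1 fell, where 13.8% of all entries were called, 7.33% higher and 6.49% lower. YBX1, an RNA-binding protein, had 55943, 59792 and 56520.3 normalised counts with YK-4-279, against 45436, 46472 and 45637 with DMSO (log2 0.32 ± 0.08, adjusted p = 0.0156). SF1, the splicing factor that binds the branch point and contacts the EWSR1 protein, had 10758, 10372 and 9585 with YK-4-279, against 8222, 8251 and 7674 with DMSO (log2 0.35 ± 0.07, adjusted p = 0.00905). The import receptor KPNB1 had 10800.1, 9243 and 9660.2 with YK-4-279, against 14409, 13027 and 12043 with DMSO (log2 −0.41 ± 0.11, adjusted p = 0.0259). SF1 kept its call in each fit without 1 library. YBX1 lost it without DMSO replicate 1 or 3 or YK-4-279 replicate 2 (0.0525 to 0.076), and KPNB1 without DMSO replicate 1 or 2 or YK-4-279 replicate 2 or 3 (0.0748 to 0.118).

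In siDHX9 against scrambled libraries 3 of the 16 partners were called, each lower and 1 of them DHX9 itself, where 16.7% of all entries were called and 7.97% were lower. The median of the 16 was −0.25, against −0.002 over all entries. SMARCC1, a core subunit of the BAF chromatin remodeller that EWS-FLI1 recruits, had 944, 1443 and 975 normalised counts in siDHX9 libraries, against 1735, 2908 and 1394 in scrambled libraries (log2 −0.80 ± 0.24, adjusted p = 0.0358). SF3B1, a splicing factor, had 845, 1222 and 766 in siDHX9 libraries, against 1266, 2130 and 1228 in scrambled libraries (log2 −0.69 ± 0.22, adjusted p = 0.0499). The SMARCC1 ranges overlap, scrambled replicate 2 is the high library for both, and without it the adjusted p was 0.13 for SMARCC1 and 0.19 for SF3B1. SMARCC1 also lost its call without scrambled replicate 1, siDHX9 replicate 1 or 3, DMSO replicate 2 or YK-4-279 replicate 3 (0.0511 to 0.13), and SF3B1 in 10 of 12 fits without 1 library (0.052 to 0.19), the exceptions being scrambled replicate 3 and siDHX9 replicate 2. Neither SMARCC1 nor SF3B1 was called in a fit of only the 6 libraries compared or with no minimum mean. In scrambled against DMSO libraries 1 of the 16 was called higher and 1 lower, where 18.9% of all entries were called. SMARCA4, the BAF ATPase, was higher (log2 0.28 ± 0.09, adjusted p = 0.0403) and HNRNPH1, a splicing regulator of EWSR1 transcripts, was lower (−0.41 ± 0.07, adjusted p = 0.00167). SMARCA4 lost its call in 8 of 12 fits without 1 library, those without any 1 DMSO or YK-4-279 library or scrambled replicate 1 or 2 (0.0527 to 0.15). It also lost it with the replicate number as a block (0.0594) and with no minimum mean. The abundant uncalled partner PRMT1, which methylates FET proteins, averaged 27727 normalised counts over the 12 libraries. Its log2 difference was 0.27 ± 0.09 for YK-4-279 (adjusted p = 0.0674) and 0.11 ± 0.09 for siDHX9 (adjusted p = 0.45). The YK-4-279 value passed with quantile normalisation, in a fit of only the 6 libraries compared and without siDHX9 replicate 2 or 3.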

How the data were processed

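For each gene entry and library the deposited file gives 1 signal value. The file name and the submitters' processing notes point to read counts divided by a DESeq size factor. The submitters' processing notes name the hg19 build and STAR 2.4.0, DESeq, SAMtools, Picard and FastQC, without settings. The table pairs symbols with coordinates, and the strand setting of the counting is not stated in them. Each column is made of multiples of what 1 read is worth, and after division by it 100% of values lay within 0.1 of a whole number of reads. These recovered reads gave the depth and the edgeR 4.0.16 and DESeq2 1.42.0 fits.

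The 14225 named entries whose 12-library mean was at least 10 were fitted as log2(value + 1), with 1 mean for each group, by limma 3.58.1 under R 4.3.3. The variance prior followed a trend on the mean, and 8 residual degrees of freedom were left. Adjusted p values are two-sided, by Benjamini-Hochberg over these entries, with a threshold of 0.05. The fold changes are on this log2(value + 1) scale and understate those of low genes. Intervals are 95% intervals and cover the spread between cultures. Floors from counts cover counting error only, as the reads carry no molecular identifiers and need not be independent molecules. The fit was tested on simulated counts.

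The text names all 9 members, entries with a mean of at least 10 inside their spans, DHX9, called genes of 3 lists with up to 3 uncalled ones of high mean, and the 3 entries most like each called member. ATXN1, KCNJ15, the fibroblast markers and the ETS factors at 0 lie outside this rule and were named after their values were seen. The members, lists and tests were chosen with earlier results of these data known. Alternatives were other added values and minimum means, TMM factors, quantile normalisation, only the 6 libraries compared, unnamed entries included, edgeR, DESeq2, the replicate number as a block and fits without 1 library or without both scrambled replicates 1 and 2. Promoter windows are from RefSeq (GRCh38.p14), and exon lengths from GENCODE release 29 on GRCh38.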

Additional observations from a re-analysis of the deposited data

Results flagged for a closer look

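The difference between the effect of YK-4-279 over DMSO and the effect of siDHX9 over scrambled was tested as 1 contrast. Over all tested entries 9.69% passed it. Of the entries named above 6 passed, none of them among the 9 FET and ETS genes. Called list genes are named by rule, so this count is not comparable with that share. All 6 were also called lower in siDHX9 against scrambled libraries, a difference that this contrast includes. For the entry of DHX9 and NPL the drug effect minus the knockdown effect was 0.455 (log2, adjusted p = 0.011), which compares a direct knockdown with a drug. The value was 1.178 for ELK3 (adjusted p = 0.0275), 1.18 for DUSP6 (0.00552), 1.012 for SPRY2 (0.0051), 1.434 for SPRY4 (0.0257) and 0.485 for DHX8 (0.0455). DHX9, DUSP6 and SPRY2 passed in each of the 12 fits without 1 library. ELK3 did not pass without DMSO replicate 3, YK-4-279 replicate 1 or 3, scrambled replicate 1 or 2, or siDHX9 replicate 1 (0.0508 to 0.0716), nor with no minimum mean. SPRY4 did not pass without DMSO replicate 1 or 2, YK-4-279 replicate 1 or 3, scrambled replicate 1 or 2, or siDHX9 replicate 1 (0.0542 to 0.0717). DHX8 passed in only 2 of the 12 fits, those without scrambled replicate 3 or siDHX9 replicate 2, and its adjusted p was 0.0604 to 0.118 in the others.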

How the results depend on the processing

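Of 570 refits of the members' fold changes, 567 stayed on the same side of the threshold, and 17 changed the sign of a value that was not called. The 3 that changed sides are the ETV5 values without scrambled replicate 3 and the ETV1 value without both scrambled replicates 1 and 2, given above. The number of members called in siDHX9 against scrambled libraries, 1, was 1 to 2 in fits without 1 library and 0 without both scrambled replicates 1 and 2, and that for the difference of effects, 0, was 0 to 1. Without 1 library, the entries called over the whole table were 858 to 2795 for YK-4-279 (1965 with all), 1244 to 4255 for siDHX9 (2378), 1431 to 3485 for scrambled against DMSO (2692) and 762 to 1883 for the difference (1379). With only the 6 libraries compared they were 4270 for YK-4-279 and 492 for siDHX9, and this setting gives no value for the difference. DESeq2 called 2097 for the difference. Without both scrambled replicates 1 and 2, which leaves 1 scrambled library assumed to vary like the other groups, the counts were 469 for siDHX9, 339 for scrambled against DMSO and 440 for the difference. The causes of these shifts were not tested.

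Same-numbered libraries of 2 groups correlated at −0.249 to 0.12 in their deviations from the group means, over 0.1 in 2 of 18 pairs. Of 36 comparisons, 13 put a library closest to its own number. Between siDHX9 and scrambled libraries the same-numbered pairs correlated best in each case, but weakly, at 0.047, 0.06 and 0.078. With 3 libraries per group these values do not settle whether the numbers pair the samples. With the replicate number as a block, 1601 entries were called for YK-4-279, 2118 for siDHX9, 2430 for scrambled against DMSO and 1118 for the difference, the member counts were unchanged at 0, 1, 0 and 0, and ETV1 had an adjusted p of 0.0165. Among the list genes the block ended the calls of ERF with YK-4-279 (0.0509) and of SMARCA4 in scrambled against DMSO libraries (0.0594). The entry of DHX9 and NPL with YK-4-279 (log2 −0.21, adjusted p = 0.0567) passed with TMM factors, quantile normalisation, the 6 libraries alone, edgeR and DESeq2 (0.0038 to 0.0279). Depth limits ERG, ETS1 and ETV4, and the low counts of FLI1 and ETV5 give them the widest intervals of the members.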
